A study of Mus musculus with 42 samples.

Results

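The proteasome genes of single mouse retinal progenitor cells (RPCs) were examined here, taken as every gene whose platform symbol begins with Psma to Psmg followed by a number. Of 18194 genes with a probe set of their own on the array, 49 had such a symbol, and 47 of these encode parts, partners or assembly factors of the proteasome. Psmc3ip, present in 13 cells, and Psme3ip1, present in 19 cells, share only the prefix and were left out of every count. The 47 genes comprised 7 genes of the alpha ring, 7 of the beta ring, 3 immune and 2 tissue-restricted core genes, 6 ATPases and 11 other genes of the cap, 3 cap chaperones, 4 core chaperones and 4 activators or inhibitors.

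The proteasome is the protease that degrades proteins tagged with ubiquitin. Its core particle is a barrel of alpha rings, which gate the entrance, and beta rings, of which Psmb5, Psmb6 and Psmb7 carry the standard proteolytic sites. A regulatory cap recognises ubiquitin chains, removes them and unfolds the substrate with a ring of ATPases, and dedicated chaperones assemble core and cap. In lymphoid cells and after interferon, Psmb8, Psmb9 and Psmb10 replace Psmb5, Psmb6 and Psmb7, and the resulting immunoproteasome is known for producing peptides for class I antigen presentation. In dividing progenitors the proteasome is known for the timed removal of cyclins and cell cycle inhibitors.

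The 42 profiles came from cells of untreated CD-1 mice, all labelled as retinal progenitors. The day of birth (P0) gave 13 cells and embryonic day 16.5 (E16.5) gave 11. The earlier ones were 1 cell of E15.5, 2 of E14.5, 4 of E13.5 and 11 of E12.5. Each cell was picked from a papain-dissociated retina, its cDNA was amplified by 35 cycles of PCR, and it was hybridized to its own Affymetrix array. The labels name no animal, litter or genotype, so a stage counted as a single sample and the stages were compared without a test. A gene was called present in a cell at a MAS5 signal of 1000 or more, the background level used in the study, and its signal was that of its brightest probe set. Intervals are exact binomial for shares and Newcombe for differences, at 95%, and cover counting error only; the values of a cell share an array, so the true error is larger. The number of cells in which a gene was present also depends on the brightness of its probe sets, which is not compared between genes here.

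Progenitor markers were widely present, with Ccnd1 and Pax6 present in 41 cells each, Dkk3 and Vim in 40, Sox2 in 34 and Fgf15 in 32. The study picked cells at random and classed them afterwards as progenitors by scores of gene clusters around Ccnd1, Fgf15, Sfrp2 and Crym. Ganglion cells were told apart by a cluster around the neuron marker Nefl. The counts of Ccnd1, Fgf15 and Nefl are therefore no independent check of what the cells are. Of endothelial genes Cdh5 was at 0 cells, Pecam1 and Tek at 1 each, Cldn5 at 3 and Kdr at 25, of pigment cell genes Tyr and Rpe65 at 0, Dct and Tyrp1 at 1 each and Pmel at 3, and the 6 neuron markers were present in 9 to 19 cells. Between 1386 and 5253 genes were present per cell, with a median of 3034. Of the 11 E16.5 arrays, 5 (those of J4, J2, J1, F1 and E8) had another pattern of the 18 hybridization control probe sets, deviating from the median pattern by an SD of 0.64 to 0.67 in log2 units, where none of the remaining 37 arrays exceeded 0.20. These 5 arrays held 3217 to 5253 genes, against 1386 to 3367 on the other 6 E16.5 arrays, and the main E16.5 results are therefore also given by set. The study classed 6 cells as transitional between progenitor and neuron (P0 C5, 3 of E16.5 named F1, E5 and D5, E14.5 B1 and E13.5 A6).

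Promoters are shown for 4 members. Psmb5 and its family member Psmb10 are a standard and an immune proteolytic subunit. The cap subunit Psmd4 shares the widest gap between E12.5 and P0 with Psmd13. The cap subunit Psmd12 is shown for its promoter, which holds the letters of both kinds of site marked in it. Each line gives the 250 bases before the RefSeq start of the gene (GRCm38.p6), read 5′ to 3′ on the strand of the gene. They lie at chr14:54617996-54618245 (Psmb5, minus strand), chr8:105938393-105938642 (Psmb10, minus strand), chr3:95042615-95042864 (Psmd4, minus strand) and chr11:107479278-107479527 (Psmd12, plus strand).
Psmb5: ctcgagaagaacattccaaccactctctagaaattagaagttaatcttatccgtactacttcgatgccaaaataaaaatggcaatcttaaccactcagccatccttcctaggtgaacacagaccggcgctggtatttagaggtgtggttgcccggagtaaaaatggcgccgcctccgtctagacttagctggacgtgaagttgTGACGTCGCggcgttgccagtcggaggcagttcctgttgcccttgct
Psmb10: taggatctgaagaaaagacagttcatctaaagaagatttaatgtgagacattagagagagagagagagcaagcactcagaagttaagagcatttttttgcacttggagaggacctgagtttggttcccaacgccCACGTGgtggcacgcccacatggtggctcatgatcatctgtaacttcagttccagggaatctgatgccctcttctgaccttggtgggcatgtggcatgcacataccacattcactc
Psmd4: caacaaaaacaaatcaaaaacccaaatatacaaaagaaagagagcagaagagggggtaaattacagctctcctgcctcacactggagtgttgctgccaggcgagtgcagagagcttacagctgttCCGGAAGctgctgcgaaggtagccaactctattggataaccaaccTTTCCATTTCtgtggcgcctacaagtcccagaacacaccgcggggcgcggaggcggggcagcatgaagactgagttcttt
Psmd12: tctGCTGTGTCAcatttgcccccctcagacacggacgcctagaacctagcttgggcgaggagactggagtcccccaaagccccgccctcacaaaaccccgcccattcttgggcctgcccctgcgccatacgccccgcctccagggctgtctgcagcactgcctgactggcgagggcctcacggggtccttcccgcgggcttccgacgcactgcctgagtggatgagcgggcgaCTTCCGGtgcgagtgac
The capitals mark, in Psmb5, a match to the letters of the antioxidant response element (TGACNNNGC), which starts 47 bases before the gene. In Psmb10 they mark an E-box (CACGTG) at 116 bases. In Psmd4 they mark an ETS site (CCGGAAG) at 125 bases and the reverse complement of an interferon-type element (GAAA repeated after 2 free bases) at 80 bases. In Psmd12 they mark the reverse complements of the ETS letters at 17 bases and of the antioxidant letters at 247 bases.

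Of the 47 genes, 39 had a promoter in the RefSeq table, and 8 motifs were searched on both strands. A gene was counted when any of its promoters held the letters. The ETS letters stood in 12 of the 39 (30.8%), among them Psma6, Psmc1, Psmc2, Psmc6, Psmd2, Psmd4, Psmd6, Psmd11 and Psmd12. They stood in 7.83% of all 27025 genes with a promoter and in 11.8% of the 14369 of these on the array. The antioxidant letters stood in 5, namely Psmb5, Psmb6, Psmc6, Psmd9 and Psmd12 (12.8%), against 11.5% of all genes with a promoter and 13.4% of those on the array. A CCAAT box, not capitalised above, stood in 14 (35.9%), against 37.5% and 39.4%. E-boxes stood in 4 (10.3%, against 6.86% and 8.74%). Interferon-type letters stood in 3, namely Psmb3, Psmd4 and Psmd9 (7.69%, against 3.46% and 3.15%). NRF1 letters (GCATGCGC) stood in 2, Psma2 and Psmc5 (5.13%, against 2.56% and 3.98%). CRE letters (TGACGTCA) and YY1 letters (AAGATGGC) stood in 0 of the 39, against 1.77% and 1.83% of all genes with a promoter. A match is a description of the letters and not evidence of binding.

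Most proteasome genes were present in most cells. Of the 47, 44 were present in at least 1 cell, as were 72.6% of all genes measured. Presence in at least 21 of the 42 cells was reached by 32 members (68.1%), against 10.8% of all genes, and 18 members reached 30 cells. Psmb4 (39 cells) and Psmb1 (38 cells), structural subunits of the beta ring, were the 2 members in 38 cells or more, a level reached by 1.17% of all genes. The members at 0 cells were Psma8, an alpha subunit of male germ cells, Psmb11, a beta subunit of the thymic cortex, and the immune subunit Psmb9; a count of 0 of 42 allows a share of up to 7.14% at 3 counts of the total, or 8.41% by the exact interval.

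**Figure D1:**
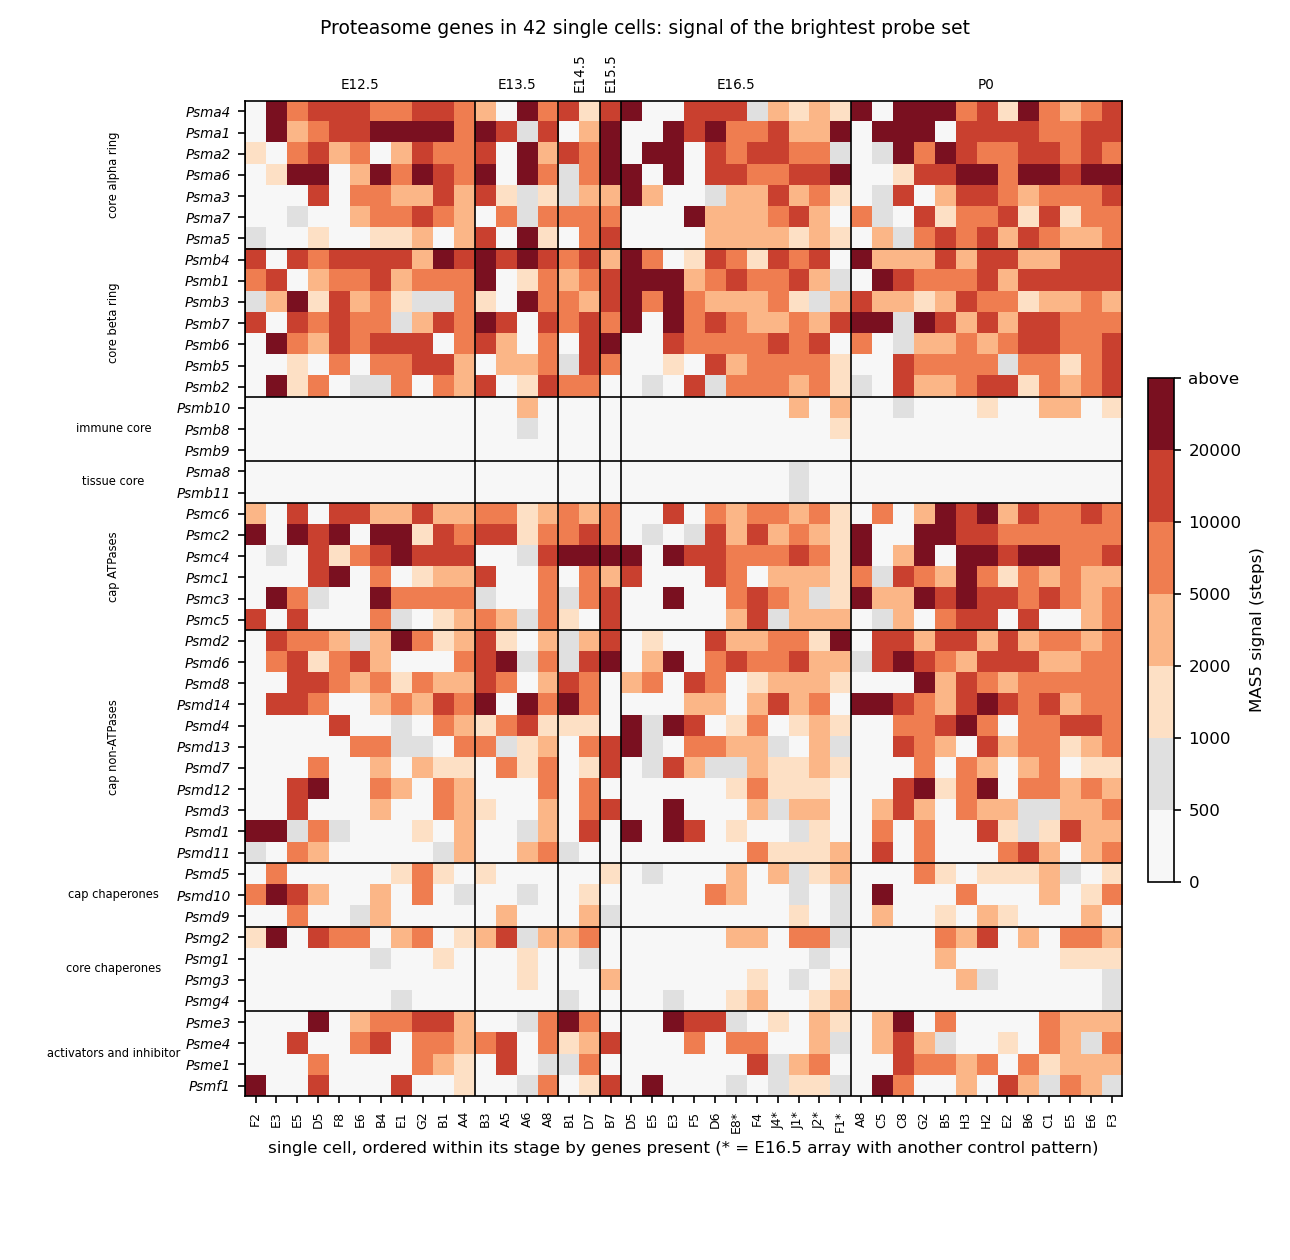
MAS5 signal of each of the 47 proteasome genes (rows, grouped by role) in each of the 42 cells (columns, ordered within a stage by the number of genes present), in colour steps, with near-white and grey below 1000. Core and cap rows are filled in most columns, the 3 immune and 2 tissue-restricted rows are almost empty, and the gaps of core and cap cluster in the leftmost cells of E12.5, E16.5 and P0.

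The 14 standard core genes were present in 469 of 588 gene and cell combinations (79.8%, 76.3 to 82.9). The alpha ring stood at 76.9% and the beta ring at 82.7%. In the alpha ring, Psma4 was present in 36 cells, Psma1 in 35, Psma2 and Psma6 in 34, Psma3 in 30, Psma7 in 29 and Psma5 in 28. In the beta ring, after Psmb4 and Psmb1, Psmb3 and Psmb7 were present in 37 cells, Psmb6 in 33, Psmb5 in 30 and Psmb2 in 29. Each core gene was thus missing in at least 3 and at most 14 cells.

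Signals within a gene ranged widely. Psmb4 ranged from 7.35 to 305637 with a median of 12014, and its highest value lay in the transitional cell E13.5 A6. The same cell held the highest value of Psma2 (120987), Psma4 (135290.0), Psma5 (24143) and Psma6 (306154), yet had only 9 of the 14 core genes present. The transitional cell E16.5 D5, with the fewest genes present of all cells (1386), held the highest Psmb1 (36875), Psmb3 (67281) and Psmb7 (74144) and had 7 core genes present. A very high signal of some subunits therefore occurred in cells in which others of the same ring were below 1000.

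The 3 genes of the standard proteolytic sites were present in 100 of 126 combinations (79.4%). Psmb7, the trypsin-like site, had a median of 9005 over the 42 cells and was below 1000 in 5 cells. Psmb6, the caspase-like site, had a median of 7285 and was below 1000 in 9 cells. Psmb5, the chymotrypsin-like site, had a median of 5670.4 and was below 1000 in 12 cells. All 3 were present together in 25 cells, namely 9 of 13 P0 cells, 7 of 11 E16.5 cells (4 of the 5 arrays with the other control pattern and 3 of the other 6), the E15.5 cell, 1 of 2 E14.5 cells, 2 of 4 E13.5 cells and 5 of 11 E12.5 cells.

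The immune counterparts were present in 8 of 126 combinations (6.35%, 2.78 to 12.1). Psmb9, the counterpart of Psmb6, reached at most 357. Psmb8, the counterpart of Psmb5, was present in E16.5 F1 alone, at 1249, and its next highest value was 621 in E13.5 A6. The value of 1249 came from 1 of its 2 probe sets, a possibly cross-reacting one, and the other set reached at most 366 in any cell. Psmb10, the counterpart of Psmb7, was present in 7 cells. Its signals at E12.5 ran from 74.7 over a median of 199 to 361, so that no E12.5 cell reached the level. At E13.5 they were 164, 205, 377 and 2669, at E14.5 221 and 257, and at E15.5 273. At E16.5 they ran from 42.0 over a median of 301 to 2584, with J1 (2584) and F1 (2087) above the level, both on the arrays with the other control pattern. At P0 they ran from 138 over a median of 345 to 3814, with C1 (3814), E5 (2724), H2 (1698) and F3 (1520.1) above it. Psmb10 was thus higher by 30.8 percentage points of cells at P0 than at E12.5 (−0.808 to 57.6), an interval that includes 0. Over the 42 cells the number of immune genes and that of other genes present had r = 0.51 and rho = 0.46. The 7 Psmb10 cells had 3063 to 5253 genes present. Of the 14 cells with at least 3500 genes, 6 were of P0 and 1 of E12.5. The part of the number of genes present in the Psmb10 difference was not tested. In 6 of the 7 Psmb10 cells, Psmb7 was present as well.

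**Figure D2:**
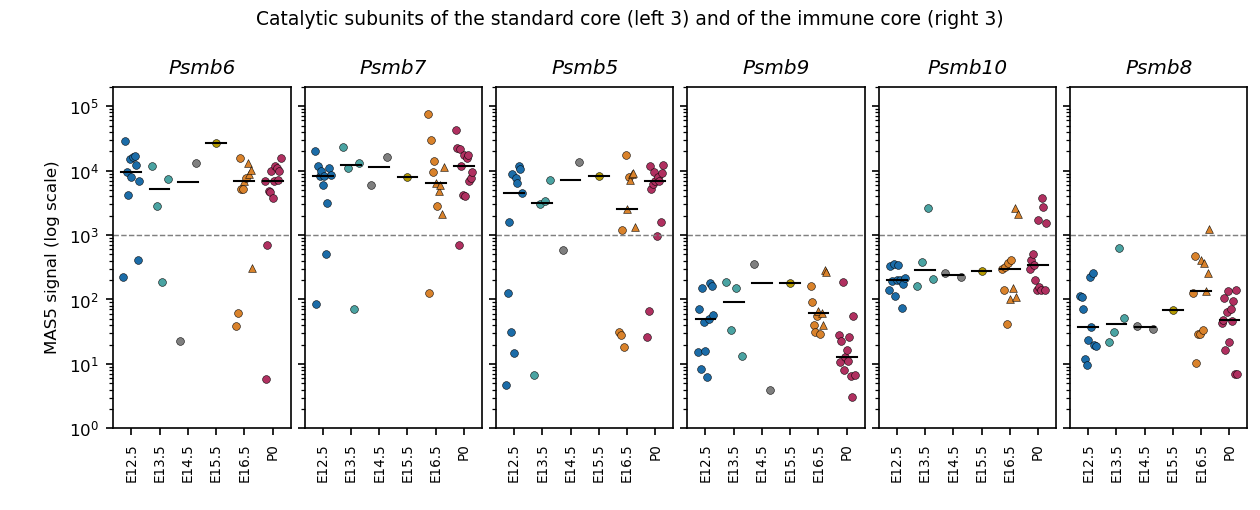
MAS5 signal (log scale) of Psmb6, Psmb7 and Psmb5 and of their immune counterparts Psmb9, Psmb10 and Psmb8 in each cell by stage; triangles are the 5 E16.5 arrays with another control pattern, bars are medians and the dashed line is 1000. The standard genes lie mostly above the line with a scatter of cells far below it, Psmb10 has 7 cells above the line and none of them at E12.5, and Psmb9 has none.

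Markers of immune and blood cells were examined beside the immune subunits. The 15 genes of that list were present in 20 of 630 combinations (3.17%), and the microglial genes Csf1r, Aif1, Tyrobp, C1qa, C1qb, C1qc and Fcer1g were at 0 cells. Of the 20, 5 lay in E13.5 A6 (Ptprc at 15985, the embryonic globin gene Hbb-y at 13841, Hba-x at 1545, Cx3cr1 at 1398 and Laptm5 at 1102) and 3 in E16.5 F1 (Hbb-y at 2348, Laptm5 at 1755 and Hba-a1 at 1566), the cells that held the highest Psmb8 signals. Of the other Psmb10 cells, P0 E5 held 1 such gene, Cd68, and the other 4 held none. Per cell the list held 0 to 3 genes in both the E12.5 and the E16.5 group and 0 to 1 in the P0 group. Genes of other cell types were also just above the level in these cells. In E16.5 F1 they were the endothelial genes Cldn5 (1155), Pecam1 (1046) and Tek (1006). In E13.5 A6 they were Cldn5 (1051) and the pigment cell gene Tyrp1 (1162). E12.5 G2 held the highest Hbb-y (97695) and Hba-x (70814), with Psmb10 at 74.7. The part of immune and blood cell transcripts in the Psmb8 and Psmb10 values of E13.5 A6 and E16.5 F1 was not tested.

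The 9 measured genes of class I antigen presentation were present in 55 of 378 combinations (14.6%), near the 17.04% of all genes measured. B2m, the light chain of class I molecules, was present in 16 cells, the heavy chain gene H2-D1 in 10, and the heavy chain gene H2-K1 and the loading factor Tapbp in 9 each. The peptide transporter genes Tap1 and Tap2 were present in 2 and 0 cells, and the class I activator Nlrc5 in 0. B2m was present in 3 of the 7 Psmb10 cells.

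The 17 cap genes with a Psm symbol were present in 470 of 714 combinations (65.8%, 62.2 to 69.3). Among cap subunits without such a symbol, Sem1 was present in 31 cells and Adrm1 was not measured, and neither is counted in the cap here. The 6 ATPases, Psmc1 to Psmc6, stood at 72.2%, with Psmc6 in 35 cells, Psmc2 in 34, Psmc4 in 33, Psmc1 and Psmc3 in 29 and Psmc5 in 22. The 11 other cap genes stood at 62.3%. Among these, Psmd2, which docks ubiquitin and its carriers, was present in 34 cells, the lid subunits Psmd6 and Psmd8 in 33 each, and the deubiquitinase Psmd14 in 32. Its partner in the lid, Psmd7, was present in 24 cells. The ubiquitin receptor Psmd4 was present in 27 cells, the lid subunits Psmd13 in 24, Psmd12 in 23 and Psmd3 in 21, the scaffold subunit Psmd1 in 20 and the lid subunit Psmd11, which contacts the core, in 17.

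As groups, the chaperones had lower shares than the core and cap genes, although Psmg2 was in more cells (24) than cap subunits such as Psmd12 (23) and Psmd11 (17). The brightness of their probe sets may share in the difference between the groups, which was not tested. Of the chaperones of the ATPase ring, Psmd5 was present in 17 cells, Psmd10 in 14 and Psmd9 in 10 (32.5% of combinations together). Of the chaperones of the core, Psmg2 was present in 24 cells and its partner Psmg1 in 6, and the second pair, Psmg3 and Psmg4, in 5 and 4 (23.2% together). All 4 cells with Psmg4 were of E16.5, at 2447 in F1, 2086 in F4, 1746 in E8 and 1571 in J2, and 3 of them were on the arrays with the other control pattern; no E12.5 or P0 cell exceeded 713. The core maturation factor Pomp, which has no Psm symbol, was present in 30 cells.

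The activators and the inhibitor stood at 48.8%. Psme3, the activator of nuclear proteasomes, and Psme4, an activator known from chromatin and germ cells, were present in 23 cells each. Psme1, a subunit of the interferon-inducible activator, was present in 19 cells and the inhibitor Psmf1 in 17. Psme1 was present in 5 of the 7 Psmb10 cells and in 8 of the 16 B2m cells.

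Complete sets of the genes counted here were found in few cells. The number of core genes present ran from 4 of 14 in E12.5 F2 to 14, with a median of 12, and all 14 were present in 13 cells, of which 7 were of P0 and 3 of E16.5, these 3 on the arrays with the other control pattern, with 1 each of the 3 stages E12.5 to E14.5. The number of cap genes ran from 3 of 17 in E16.5 E5 to 17, with a median of 11.5, and all 17 were present in 4 cells, E12.5 A4, E13.5 A8, P0 E6 and P0 F3, which also had all 14 core genes. Every cell with all 14 core genes had at least 3062 genes present, and every cell with all 17 cap genes at least 4182.

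At the level of 1000 the number of subunits was higher in cells with more genes present. Over the 42 cells the number of core genes and that of all other genes present had r = 0.70 and rho = 0.77, and the cap had r = 0.76 and rho = 0.79; core and cap had r = 0.85. For the core, r was 0.45 at a level of 500 and −0.38 after quantile normalization, which gives every array the same distribution of signals. Every array then has the same number of probe sets at or above 1000. The number of genes present thus no longer measures depth, and the value of −0.38 is not read as a reversal. These are descriptions across cells that share the array scaling and the depth of each amplification. Of the core values, 55.0% were present in the 10 cells with fewer than 2500 genes, 82.5% in the 18 cells with 2500 to under 3500 and 93.9% in the 14 deeper cells. For the cap these shares were 42.4%, 64.1% and 84.9%. The 6 transitional cells had 5 to 9 core genes each, which held also for E16.5 F1, the cell with the most genes present of all (5253; 9 core genes), and for E13.5 A6 (3554; 9). No other cell with over 3500 genes had fewer than 13 core genes. In E16.5 F1 several of the calls lay close above the level. Of its 9 core genes, Psma3 (1250), Psma4 (1121), Psma5 (1022) and Psmb5 (1330) did so, and its 6 ATPases lay at 1235 to 2018. Its number of genes present may therefore not measure depth as in other cells, which was not tested.

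**Figure D3:**
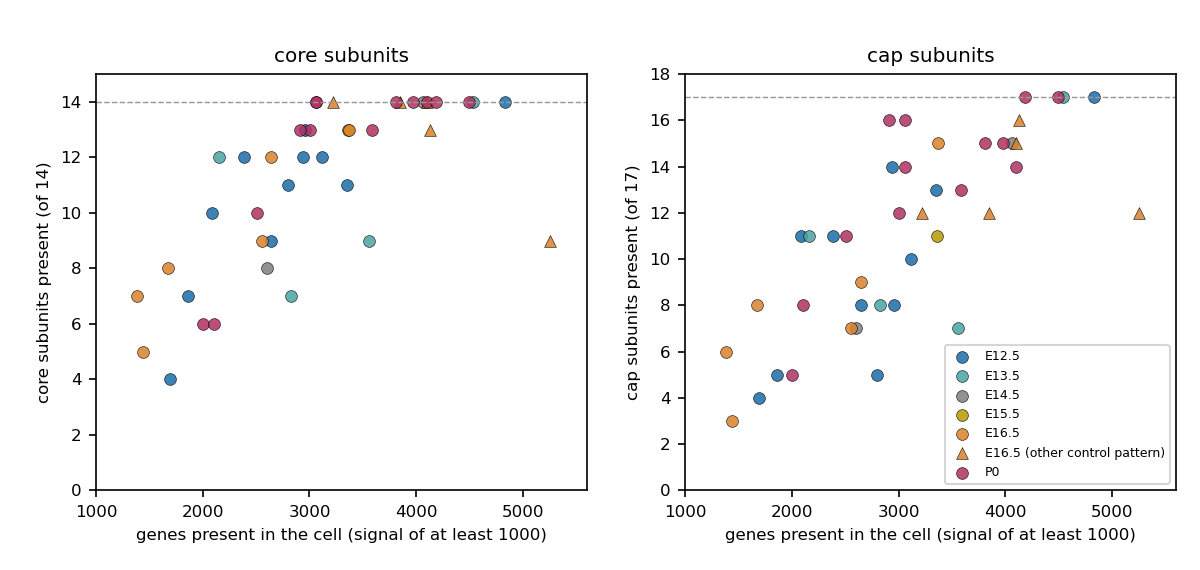
Number of core genes (left, of 14) and cap genes (right, of 17) present in each cell against the number of genes present in it, coloured by stage; triangles are the 5 E16.5 arrays with another control pattern and dashed lines mark complete sets. Both numbers climb with the genes present, the core reaches 14 from 3062 genes onward, and E16.5 F1 at 5253 genes has 9 core genes.

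Between E12.5 and P0 the question was whether early and late RPCs differed in these genes. Core genes were present in 74.7% of the values at E12.5 and in 87.4% at P0, higher by 12.7 points (4.32 to 21.1), with 13 of the 14 genes at a higher share. Cap genes were present in 56.7% at E12.5 and 78.3% at P0, higher by 21.6 points (12.5 to 30.3), with 16 of the 17 at a higher share. The non-ATPase cap genes were higher by 24.3 points and the ATPases by 16.7. Over the 47 members the difference was 13.9 points, with 36 genes at a higher share, 6 at a lower and 5 at the same. The shares of all genes measured were 15.3% and 18.1%, and genes present in at least 10 cells were higher by 7.05 points, a set that most members belong to. In cells with 2500 to under 3500 genes present, 6 of E12.5 and 5 of P0, a comparison chosen after the data were seen, the core was higher by 10.5 points (−0.82 to 21.2; 81.0% against 91.4%), with 0 inside the interval, and the cap by 24.3 points (11.03 to 36.2; 56.9% against 81.2%).

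A difference of at least 40 points of cells was taken as a call. Of all genes, 1.84% were called higher at P0 and 0.478% lower, and of genes present in at least 10 cells 6.1% and 1.59%. Among the 47 members 3 were called higher (Psmd4, Psmd13 and Psme1) and 0 lower, and the call of Psmd13 was lost at a level of 500, with the mean of the probe sets and after quantile normalization. All 3 were among the 39 members present in at least 10 cells, and 3 of 39 is close to the share among such genes, so the number of calls does not set the proteasome genes apart. A higher share at P0 was found for 36 of the 47 members, with a median difference of 10.5 points over the 47. Of the 5228 genes present in at least 10 cells it was found for 3293, with a median of 6.29 points. These 2 sets are unlike, as the 47 include members present in fewer than 10 cells.

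Psmd4 was present in 3 of 11 E12.5 cells and 10 of 13 P0 cells (higher by 49.7 points, 9.69 to 72.7). Its E12.5 signals ran from 94.2 over a median of 411 to 17797, and its P0 signals from 170.3 over a median of 6626 to 21963. The stages overlapped, with 3 E12.5 cells above the level (4146, 7008 and 17797) and 3 P0 cells below it. At E13.5 the signals were 1128, 1801, 5958 and 13526, at E14.5 1387 and 1461, and at E15.5 274. At E16.5, 8 of 11 cells were above the level, 4 on each set of arrays, so that Psmd4 was higher by 45.5 points than at E12.5 as well (4.03 to 70.2).

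Psmd13 was likewise present in 3 of 11 E12.5 and 10 of 13 P0 cells (49.7 points, 9.69 to 72.7). Its E12.5 signals had a median of 292 and a highest value of 9012, and its P0 signals a median of 4181 and a highest value of 16316. At E13.5 they were 873, 1601, 3319 and 5833, at E14.5 487 and 5337, and at E15.5 10109. At E16.5, 6 of 11 cells were above the level, with 2 on the 5 arrays with the other control pattern.

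Psme1 was present in 4 of 11 E12.5 and 10 of 13 P0 cells (40.6 points, 1.35 to 66.5). Its median signal was 104 at E12.5 and 3714 at P0, and the highest values of both stages lay close together, at 8015 and 10584. At E13.5 the signals were 17.5, 147, 831 and 15918, at E14.5 790.2 and 5307, and at E15.5 109. At E16.5, 3 of 11 cells were above the level, 2 of them on the arrays with the other control pattern, with a median of 73.5. Psme1 was thus present in few E16.5 cells as well and was higher by 49.7 points at P0 than at E16.5 (9.69 to 72.7).

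**Figure D4:**
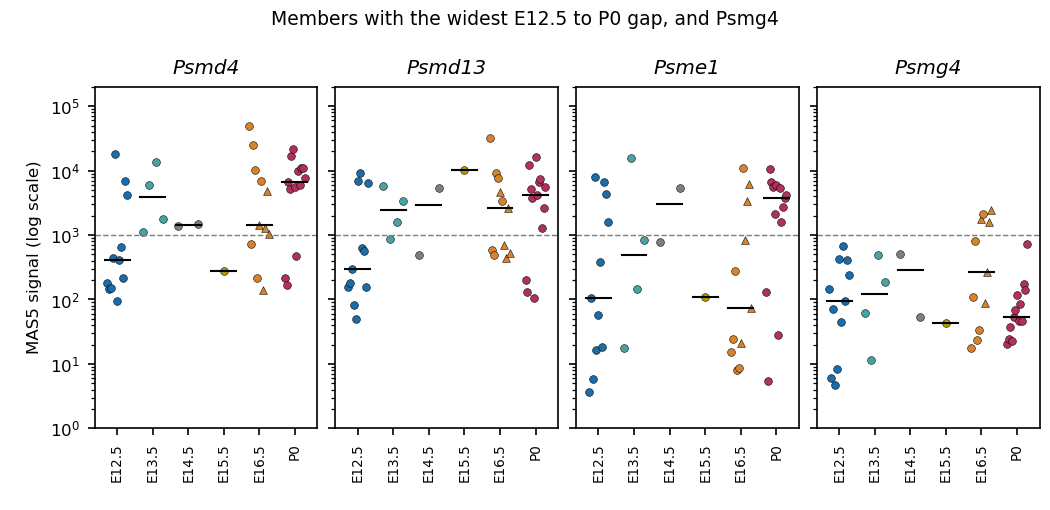
MAS5 signal (log scale) of Psmd4, Psmd13, Psme1 and Psmg4 in each cell by stage; triangles are the 5 E16.5 arrays with another control pattern, bars are medians and the dashed line is 1000. Of the 13 P0 cells, 10 lie above the line for Psmd4, Psmd13 and Psme1, against 3, 3 and 4 of the 11 E12.5 cells, and the stages overlap for each gene.

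Just short of a call were Psma5, an alpha ring subunit present in 5 of 11 E12.5 and 11 of 13 P0 cells (39.2 points, 1.41 to 65.8), and the ATPases Psmc1 (37.8 points) and Psmc3 (36.4 points). Psma5 was called at a level of 2000 and with the mean of the probe sets, Psmc1 at a level of 500 and without the transitional cells, and the lid subunit Psmd3 at a level of 500. The median signal of Psma5 was 968 among E12.5 cells, 1608 among those of E16.5 and 5247 among those of P0. Psmb3, Psmb4, Psmc3 and Psmd14 were present in all 13 P0 cells, which no member was in the 11 E12.5 cells. These genes were singled out after their values were seen. The share of all genes present in every cell of a stage was not counted. Fewer than 2500 genes were present in 4 of the E12.5 and 2 of the P0 cells, so nothing about the proteasome is read from this contrast. The lowest P0 signals of Psmb3, Psmb4, Psmc3 and Psmd14 were 1326, 2605, 2633 and 4289.

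All 6 members with a lower share at P0 had an interval that includes 0, as did 30 of the 36 with a higher share. The other 6 were Psma5, Psmc1, Psmc3, Psmd4, Psmd13 and Psme1. How many of all genes have an interval without 0 was not counted, and the intervals cover counting error only, so nothing is read from this number. The core chaperone Psmg2 went from 8 of 11 to 7 of 13 cells (−18.9 points, −49.2 to 18.3) and the cap chaperone Psmd10 from 6 of 11 to 5 of 13 (−16.1 points, −48.0 to 21.1). The activator Psme3 differed by −9.79 points and Psma1 by −6.29 points. Psmd8 and Psme4 were the remaining 2, at −4.90 and −0.699 points.

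**Figure D5:**
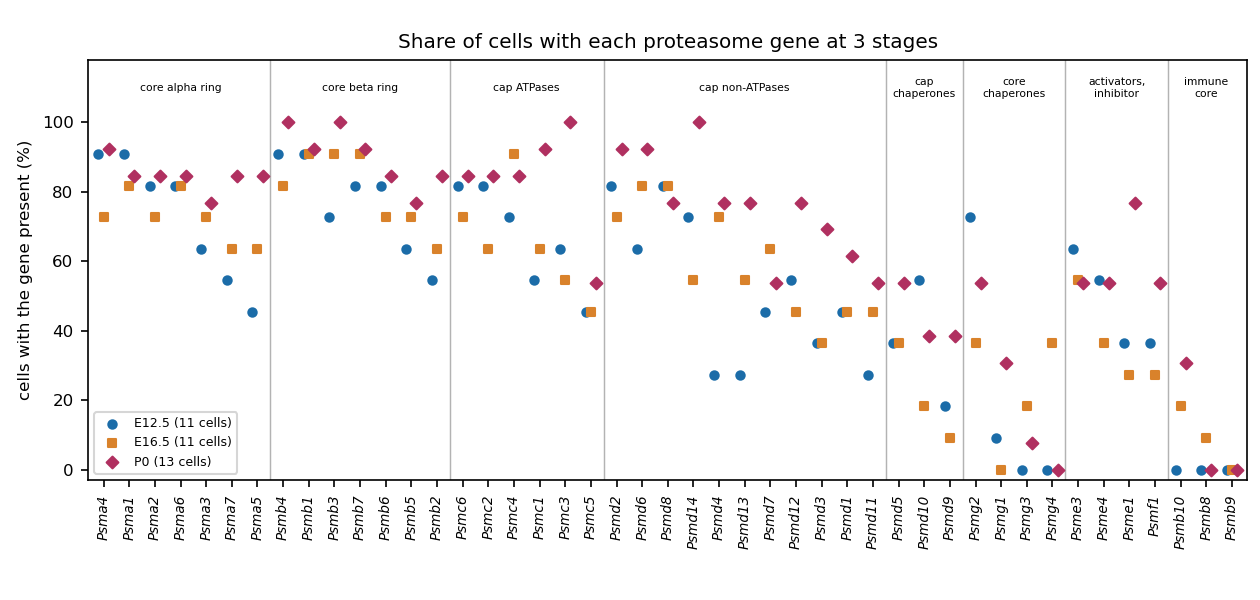
Share of cells (%) in which each proteasome gene was present among the 11 E12.5 (circles), 11 E16.5 (squares) and 13 P0 cells (diamonds), ordered by role and by the number of cells over all stages; Psma8 and Psmb11, at 0 cells, are left out. P0 lies above E12.5 for most core and cap genes, with the widest gaps at Psmd4, Psmd13 and Psme1, and Psmg4 is above 0 at E16.5 alone.

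At E16.5 the values depended on the set of arrays. Core genes were present in 76.6% of values and cap genes in 61.5%, higher than at E12.5 by 1.95 points (−7.62 to 11.5) and 4.81 points (−5.11 to 14.6). On the 5 arrays with the other control pattern the shares were 91.4% for the core and 78.8% for the cap, and on the other 6 they were 64.3% and 47.1%. The shares of all genes on the same arrays were 22.6% and 11.97%, and 3 of the other 6 arrays were of cells with under 2500 genes present. Without the 5 arrays, E16.5 differed from E12.5 by −10.4 points for the core and −9.63 points for the cap. Without the transitional cells it was instead higher by 11.9 points for the core and 12.4 for the cap. Psmd4 was the only member called higher at E16.5 than at E12.5, where 0.715% of all genes and 1.89% of those present in at least 10 cells were called, and 0 members were called lower (0.61% and 2.07%). Without the 5 arrays that call was lost, as Psmd4 was then present in 4 of 6 cells and higher by 39.4 points (−7.54 to 68.8). In the same comparison, added after the data were seen, 0 members were called higher (0.632% of all genes), and Psma4, Psmc2 and Psmg2 were called lower (2.42% of all genes). The share among genes present in at least 10 cells was not counted for this comparison, so these calls do not set the proteasome genes apart. Against E16.5, the P0 core was higher by 10.7 points (2.53 to 19.1) and the cap by 16.8 (7.88 to 25.5), with Psmc3, Psmd14 and Psme1 called higher (1.95% of all genes and 6.58% of those present in at least 10 cells) and 0 members lower (0.495% and 1.28%).

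The cells of E13.5, E14.5 and E15.5 were too few for more than a description. Core genes were present in 75.0% of the values of the 4 E13.5 cells, with 7, 9, 12 and 14 of 14 genes per cell. The 2 E14.5 cells had 8 and 14 core genes, and the E15.5 cell had 13. Cap genes numbered 7, 8, 11 and 17 of 17 in the E13.5 cells, 7 and 15 at E14.5 and 11 at E15.5.

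Other genes of the ubiquitin and proteasome pathway were present in 426 of 840 combinations (50.7%; 20 of 28 listed genes measured). Those in the most cells were Vcp, the unfoldase that extracts ubiquitinated proteins (36 cells), the ubiquitin shuttle Rad23b (34) and Zfand5, a proteasome-binding zinc finger protein (32). From E12.5 to P0 the list went from 45.5% to 58.5% (13.0 points, 4.04 to 21.7), with 15 genes at a higher share and 5 at a lower. Of the 20 genes 3 were called higher, beside 1.84% of all genes and 6.1% of those present in at least 10 cells. They were Nploc4 (61.5 points, 0 of 11 to 8 of 13 cells) and Ufd1 (43.4 points), the paired adaptors of Vcp, and the shuttle Ubqln2 (51.0 points). The cap deubiquitinase Usp14 and the proteasome adaptor Ecpas had lower shares, each from 7 of 11 to 4 of 13 cells (−32.9 points, −60.7 to 6.12). Nfe2l1, the factor known for restoring proteasome gene transcription, was present in 7 cells and in 0 of P0 (−18.2 points against E12.5, −47.7 to 8.09). The intervals of Usp14, Ecpas and Nfe2l1 include 0.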

How the data were processed

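Single cell cDNA was made with an oligo dT primer, amplified by 35 cycles of PCR and put on Affymetrix mouse arrays, 1 per cell. The authors computed the deposited signal intensity of each probe set with MAS 5.0 on a linear scale and scaled each array to a target of 500; the mean intensity after trimming 2% at each end was 500 on every array. Amplification favours some molecules, so a signal below 1000 does not mean that the cell lacked the transcript, and with 1 array per cell the number of cells limits the precision.

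Of 45101 probe sets, 34958 carried 1 gene symbol of the platform annotation, 932 several and 9211 none; only the first were used. The brightest probe set stood for a gene, since of the 26 members with several probe sets 19 had a set present in fewer than 5 cells. Psme2 shares its probe set with Psme2b and was not counted. Presence was a signal of at least 1000. Counts, shares, intervals and correlations were computed in Python 3.11.15 with numpy 2.4.6, pandas 2.3.3 and scipy 1.17.1, figures in matplotlib 3.10.9, and the interval and call steps were tested on simulated data. No p-value was computed, as cells are not replicates. No 2 arrays were alike enough to be copies (highest correlation 0.80).

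Members and gene lists were chosen with earlier results of these data known. Every member was named by its number of cells, together with the immune and proteolytic subunits, the 4 widest differences in each direction from E12.5 to P0, and from other lists the 3 genes in the most cells and those in 0; further genes were named, and the background of genes present in at least 10 cells was added, after values were seen. Alternatives were levels of 500 and 2000, the mean of the probe sets, removal of cross-reacting probe sets, quantile normalization, and leaving out the 5 E16.5 arrays, the transitional cells or single cells. Promoter sequences came from RefSeq (GRCm38.p6), and the NRF1 letters were shortened after a first search with a longer form.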

Additional observations from a re-analysis of the deposited data

Results flagged for a closer look

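The probe set shared by Psme2, the partner of Psme1 in the interferon-inducible activator, and its copy Psme2b was outside the counts and was present in 17 of 42 cells, 13 of which also had Psme1. Among 14 values looked at over the 4 E13.5 cells, Psmb10 at 2669 and Psmb8 at 621 set cell A6 far from the other cells by the gap relative to the range; the Psmb8 value is below 1000. Chance gives such a gap in about 1 in 20 groups of independent, normally distributed samples. Cells of 1 stage are not independent samples, and signals on a linear scale need not be normal. The rate also holds for 1 value, where 14 were looked at, so it does not measure how rare these gaps are. The same cell had 2 core chaperone genes present against 1 in each of the other 3, where the tie makes any gap stand out, so nothing is read from it. The cell is the transitional cell that held 5 blood and immune marker genes, and the part of those in its values was not tested.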

How the results depend on the processing

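The core and cap differences between E12.5 and P0 kept their direction under the 6 alternatives that could change them and in cells of 2500 to under 3500 genes. With 1 cell left out, a choice made after the data were seen, they ranged from 8.08 to 16.4 points for the core and from 18.3 to 25.9 for the cap. The difference between E12.5 and E16.5 ranged from −2.66 to 6.04 points for the core and from 1.50 to 9.20 for the cap when 1 cell was left out, was −10.4 and −9.63 without the 5 E16.5 arrays, and was 11.9 and 12.4 without the transitional cells. The core share was 84.7% at a level of 500, 73.6% at 2000 and 84.3% without the transitional cells; the cap share was 71.4%, 58.4% and 69.8%, and 59.7% with the mean of probe sets. The correlation of core genes with genes present was 0.45 at a level of 500 and 0.81 with the mean of probe sets. It was −0.38 after quantile normalization, where the number of genes present no longer measures depth. The core share at E14.5 was 57.1% or 100% with 1 of its 2 cells left out, and 100% without the transitional cell; at E13.5 it ranged from 66.7% to 83.3%. Psmd4 and Psme1 were called at P0 against E12.5 under those 6 alternatives, Psmd13 not at a level of 500, with the mean of probe sets or after quantile normalization. Psmb8 was in 0 cells at a level of 2000, with the mean of probe sets, without cross-reacting sets, without the 5 arrays and without the transitional cells. No paired analysis was possible because the cells carry no animal label and their numbers only name them.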
